A study of Homo sapiens with 6 samples.

Results

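The PRDM genes encode transcription factors that carry a PR domain, a relative of the SET domain of histone methyltransferases, usually followed by zinc fingers that bind DNA. The 9 genes described here are PRDM16, MECOM, PRDM1, PRDM2, PRDM4, PRDM8, PRDM10, PRDM11 and PRDM15. They were taken by gene name from tables of 38648 listed genes, and each had a single listing. The cells were HPC, a wild-type human podocyte line; podocytes are the kidney epithelial cells whose foot processes cover the filtering capillaries. There were 3 RNA sequencing libraries with a PRDM16 overexpressing lentivirus and 3 with a negative control (NC) lentivirus. Cells of both groups were in high glucose and received a lentivirus, so both share the glucose and a viral transduction. The sample titles give 24 h without saying what was timed. The promoter and dose of the virus were not stated in the labels. Nor do they say that the libraries are separate cultures, and the p-values then cover only the spread among these libraries, possibly a technical one.

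PR domains are kin to enzymes that methylate lysines of histones, but only some PRDM proteins are known to have that activity, and many act by recruiting other chromatin enzymes. PRDM16 is best known for steering precursor cells to brown fat. MECOM, also called EVI1 or PRDM3, is its closest relative and is known from blood stem cells and leukaemia. PRDM15 has a link to the podocyte itself, since inherited variants of it cause a syndrome with early kidney filter failure.

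Totals ran from 20147135 to 41280350 gene counts per library. The podocyte label held in part. PODXL, at 53.7 ± 5.75 TPM over the 6 libraries (SD; a level scaled to transcript length and library size), CD2AP, SYNPO and MME were present. NPHS1, WT1 and PTPRO had at most 4 counts in any library. Of the kidney epithelial markers, PAX8 was at 164 ± 15.9 TPM, KRT8 at 1718 ± 124 TPM and KRT18 at 1234 ± 55.4 TPM. PAX2 was at 17.5 ± 1.64 TPM, EPCAM at 5.62 ± 1.57 TPM and CDH1 at 0.477 ± 0.118 TPM. Of the proximal tubule markers, AQP1 had 50 to 111 counts per library, SLC34A1 8 to 28, CUBN 4 to 15 and LRP2 0. Of the fibroblast markers, COL1A1 was at 140 ± 13.7 TPM and PDGFRB at 9.12 ± 0.847 TPM, while COL3A1 had at most 2 counts and PDGFRA at most 1. Of the leukocyte markers, CD68, a lysosomal protein, was at 263 ± 16.0 TPM, CD14 at 1.59 ± 0.428 TPM and PTPRC at 0.182 ± 0.0420 TPM. The endothelial markers KDR and PECAM1 had at most 2 counts in any library, CDH5 had 3 to 12 and VWF 36 to 109.

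All 9 genes could be tested, and 1 of them, PRDM16, passed at an adjusted p under 0.05 in the quasi-likelihood test of edgeR with Benjamini-Hochberg adjustment over all 15381 tested genes, of which 0.065% passed. PRDM16 met the filter on low counts through the PRDM16 libraries alone, and the other 8 met it in both groups. The other 8 were detected in every library of both groups and none passed, with 1 of them, PRDM11, at an unadjusted p under 0.05 in edgeR. DESeq2 and limma-voom also called 0 of these 8. The share of all tested genes at an unadjusted p under 0.05 was 16%.

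PRDM16 had 11, 18 and 24 counts in the PRDM16 libraries, against 0, 0 and 0 counts in the NC libraries. All 3 PRDM16 libraries held it and no NC library did, so the groups did not overlap. In TPM these were 0.163, 0.190 and 0.184 in the PRDM16 libraries, while 3 counts, used here as the floor, stand for 0.0361 to 0.0452 TPM in the NC libraries. The exact Poisson 95% intervals of the PRDM16 libraries, 0.0812 to 0.291, 0.113 to 0.300 and 0.118 to 0.274 TPM, overlap and cover counting error only. The upper ends of the same intervals for 0 counts are 0.0444 to 0.0556 TPM in the NC libraries. In bulk RNA, fewer cells with the transcript and less of it per cell cannot be told apart. Pooled over each group, the level with the PRDM16 lentivirus was 14.4 times that of 3 counts over the NC group. That ratio leaves out the counting error of the PRDM16 group and is not a bound. The edgeR test (adjusted p = 7.7e-04) belongs to another estimate, a log2 fold change of 7.02 that rests on 0 counts in the NC libraries. An exact two-sided permutation test on log2(CPM + 0.1) gave p = 0.1, the smallest that 3 against 3 allows.

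By the deposited TPM, PRDM16 was the least abundant of the 9 genes even in the PRDM16 libraries. It made up 0.387% to 0.456% of the summed TPM of the 9 in the PRDM16 libraries, and there 1.42% of tested genes stood lower by mean TPM. In those libraries PRDM1, the next gene up, stood 2.35 to 3.70 times as high in TPM, MECOM 22.8 to 30.6 times and PRDM4 113 to 127 times. The deposited row covers chromosome 1 from 3069203 to 3438621 (hg38, plus strand). Viral transcripts that match these exons fall in the same row as those of the cells' own gene, and the 2 cannot be told apart. The sequence of the virus is not given in the labels, and viral transcripts that do not match the exons would be missed. The TPM uses the listed length of 8698 bases, and the length of the viral transcript is not given. The 4 other genes annotated within the PRDM16 span had at most 1 count in any library.

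**Figure D1:**
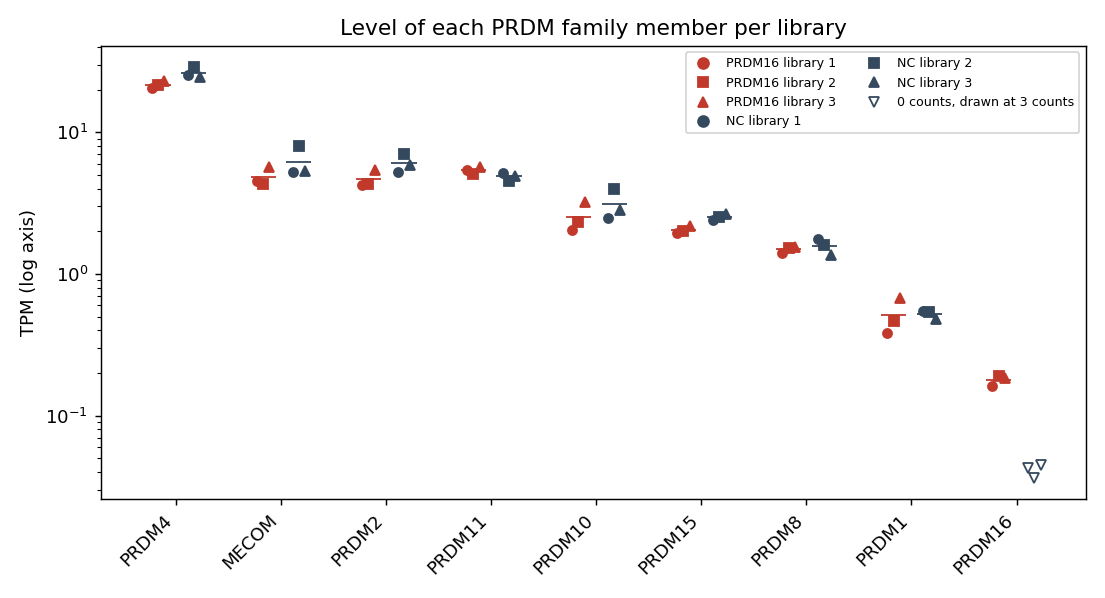
TPM (log axis) of the 9 PRDM genes in each library, PRDM16 libraries in red and NC libraries in dark blue, with a line at each group mean and genes ordered by mean level. Open triangles mark PRDM16 in the NC libraries, which had 0 counts, at the level of 3 counts. PRDM4 stands above all others and PRDM16 below them.

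PRDM4 was the most abundant of the 9 genes in each of the 6 libraries. It had 20.6, 21.4 and 23.0 TPM in the PRDM16 libraries, against 25.2, 29.1 and 24.7 TPM in the NC libraries. Every PRDM16 library lay below every NC library. PRDM4 is widely expressed, and in mouse neural stem cells it recruits the arginine methyltransferase PRMT5. It made up 48.4% to 51.4% of the summed TPM of the 9 genes in the PRDM16 libraries and 50.7% to 52.5% in the NC libraries. Scaled to depth with TMM factors as CPM, the means were 36.1 ± 0.318 CPM in the PRDM16 libraries and 39.8 ± 1.79 CPM in the NC libraries (SD, n = 3 each). The log2 fold change was -0.14 ± 0.12 (SE), with a 95% interval of -0.38 to 0.10, and did not pass (edgeR adjusted p = 0.501). In both units the groups did not overlap. Of the 8 genes other than PRDM16, PRDM4 and PRDM15 lay wholly lower in CPM in the PRDM16 libraries and PRDM11 wholly higher. Over all tested genes 8.77% lay wholly lower and 12.2% wholly higher, 21% together. PRDM16 met the count filter through the PRDM16 libraries alone, so its lack of overlap is not counted here.

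The promoter of PRDM4 is shown for its base composition, with 250 bases before the start and 50 after it in RefSeq (GRCh38.p14), at chr12:107761088-107761387, minus strand. Capitals mark CG, which reads the same on both strands and does not overlap itself.
PRDM4: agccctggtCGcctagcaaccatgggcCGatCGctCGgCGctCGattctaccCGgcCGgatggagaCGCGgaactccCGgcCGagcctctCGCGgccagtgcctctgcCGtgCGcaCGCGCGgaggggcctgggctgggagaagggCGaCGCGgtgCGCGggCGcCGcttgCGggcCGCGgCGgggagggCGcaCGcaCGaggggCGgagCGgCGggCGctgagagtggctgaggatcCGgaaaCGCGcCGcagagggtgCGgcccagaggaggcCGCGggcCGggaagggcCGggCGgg
It holds 47 CG, and 2.41% of the 35116 promoters in the table hold at least as many, against a median of 14. The match is a description of these letters only.

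The 3 genes whose log2 CPM followed PRDM4 most closely over the 6 libraries were VWA8 (Pearson r = 0.999), LZIC (r = 0.996) and TNFRSF10D (r = 0.991). Across the other 15380 tested genes, 123 had r of at least 0.95, these 3 among them. The 3 were picked as the highest over 6 libraries, and a link to PRDM4 was not tested.

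Below PRDM4 came MECOM, PRDM2 and PRDM11, with mean TPM over the 6 libraries of 5.51, 5.36 and 5.14 and overlapping ranges. Their order differed by group: PRDM11 was above MECOM and PRDM2 in all 3 PRDM16 libraries and below both in all 3 NC libraries. Some of these gaps were near ties. In PRDM16 library 3, PRDM11 was at 5.646 and MECOM at 5.638 TPM. In NC library 1, PRDM11 was at 5.18, MECOM at 5.25 and PRDM2 at 5.26 TPM. MECOM and PRDM2 changed places within both groups. PRDM10 (2.81 TPM) and PRDM15 (2.28 TPM) overlapped in range, although PRDM10 was the higher in 6 of 6 libraries. PRDM8 (1.54 TPM) lay below PRDM15 and above PRDM1 (0.516 TPM) with no overlap of ranges. The median tested gene in the PRDM16 libraries stood at 11.2 TPM, which of the 9 genes only PRDM4 exceeded.

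MECOM had 4.49, 4.33 and 5.64 TPM in the PRDM16 libraries, against 5.25, 8.02 and 5.36 TPM in the NC libraries. NC library 2 stood above the other 5, which overlapped between the groups. In CPM the means were 15.4 ± 1.39 in the PRDM16 libraries and 18.0 ± 3.68 in the NC libraries (SD, n = 3 each), a log2 fold change with a 95% interval of -0.52 to 0.07. In fold terms the interval runs from 0.697 to 1.05. The estimate of -0.22 was -0.04 without NC library 2. Neither value passed in edgeR (adjusted p = 0.391 and 0.947).

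PRDM2, also called RIZ, encodes a protein that binds the retinoblastoma protein and has been tied to methylation of histone H3 lysine 9. It had 4.22, 4.33 and 5.45 TPM in the PRDM16 libraries, against 5.26, 7.02 and 5.86 TPM in the NC libraries. The groups overlapped, with PRDM16 library 3 above NC library 1. The log2 fold change was -0.24 ± 0.13 (SE) with a 95% interval of -0.50 to 0.03 (edgeR adjusted p = 0.330), and -0.15 without NC library 2.

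MECOM and PRDM2 each have starts that give a long form with the PR domain and starts further in that give a short form without it. The counts are 1 value per gene, so these forms cannot be told apart. The sequences at the starts are shown because the count of each gene sums over them. They are from RefSeq (GRCh38.p14), with CG in capitals. The outer start of MECOM is at chr3:169663663-169663962 and an inner one at chr3:169147422-169147721, both on the minus strand. The outer start of PRDM2 is at chr1:13699938-13700237 and an inner one at chr1:13749165-13749464, both on the plus strand.
MECOM outer: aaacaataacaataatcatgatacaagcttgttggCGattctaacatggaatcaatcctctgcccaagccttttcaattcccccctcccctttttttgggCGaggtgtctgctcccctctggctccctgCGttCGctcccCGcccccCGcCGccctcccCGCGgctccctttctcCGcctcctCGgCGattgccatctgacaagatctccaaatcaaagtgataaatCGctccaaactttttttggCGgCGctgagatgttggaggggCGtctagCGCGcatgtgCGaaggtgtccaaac
MECOM inner: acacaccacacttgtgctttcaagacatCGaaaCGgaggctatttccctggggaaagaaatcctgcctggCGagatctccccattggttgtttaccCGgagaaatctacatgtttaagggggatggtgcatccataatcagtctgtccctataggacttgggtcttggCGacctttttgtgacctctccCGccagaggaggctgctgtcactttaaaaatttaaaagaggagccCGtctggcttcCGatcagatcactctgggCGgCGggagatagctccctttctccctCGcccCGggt
PRDM2 outer: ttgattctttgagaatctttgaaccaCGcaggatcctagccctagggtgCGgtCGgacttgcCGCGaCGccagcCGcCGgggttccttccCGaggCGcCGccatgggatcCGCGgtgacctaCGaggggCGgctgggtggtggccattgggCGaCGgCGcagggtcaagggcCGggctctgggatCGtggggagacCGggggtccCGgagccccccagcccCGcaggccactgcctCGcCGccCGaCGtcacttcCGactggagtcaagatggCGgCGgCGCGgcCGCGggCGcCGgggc
PRDM2 inner: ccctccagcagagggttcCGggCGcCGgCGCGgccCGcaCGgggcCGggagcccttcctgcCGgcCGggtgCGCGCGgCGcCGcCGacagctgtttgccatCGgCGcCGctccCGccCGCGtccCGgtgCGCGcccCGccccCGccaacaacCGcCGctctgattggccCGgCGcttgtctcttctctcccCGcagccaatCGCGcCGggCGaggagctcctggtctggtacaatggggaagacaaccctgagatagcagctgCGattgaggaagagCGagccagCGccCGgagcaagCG
The MECOM windows hold 19 and 12 CG, and 42.9% and 53.1% of all promoters hold at least as many. The PRDM2 windows shown hold 36 and 41 CG, which 12.7% and 6.69% of promoters reach. Each gene has another start in the table, not shown, which holds 19 CG in MECOM and 5 CG in PRDM2, a number that 70.4% of promoters reach.

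PRDM15 takes part in MAPK and WNT signalling control in mouse embryonic stem cells. It had 1.93, 2.00 and 2.19 TPM in the PRDM16 libraries, against 2.38, 2.53 and 2.65 TPM in the NC libraries. All 3 PRDM16 libraries lay below all 3 NC libraries. In CPM the PRDM16 libraries were almost equal, at 9.32, 9.34 and 9.34, against 9.94, 9.99 and 11.6 in the NC libraries. Those of the PRDM16 libraries rest on 179, 260 and 391 counts, whose counting error is wider than this spread. The log2 fold change of -0.17 ± 0.14 (SE) did not pass (95% interval -0.46 to 0.12, edgeR adjusted p = 0.497). It was -0.20 without NC library 2 and -0.09 without NC library 3, and ran from -0.23 to -0.09 over all 17 alternatives.

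PRDM11, a member with few zinc fingers that is known as a brake on lymphoma in mice, ran the other way. It had 5.45, 5.07 and 5.65 TPM in the PRDM16 libraries, against 5.18, 4.56 and 4.92 TPM in the NC libraries. The groups overlapped in TPM, where PRDM16 library 2 lay below NC library 1. In CPM they did not, with 32.2, 28.9 and 29.5 in the PRDM16 libraries, against 26.5, 22.1 and 26.3 in the NC libraries. The log2 fold change was 0.28 ± 0.12 (SE), with a 95% interval of 0.02 to 0.53 and an unadjusted p of 0.0351 in edgeR, and it did not pass after adjustment over all genes (edgeR adjusted p = 0.302). Its direction was the same under all 17 alternatives, with log2 fold changes of 0.20 to 0.32. The lowest, 0.20, was without NC library 2, its lowest library in CPM (edgeR adjusted p = 0.706). With NC library 2 or any single PRDM16 library left out, 0 of the 8 genes other than PRDM16 had an unadjusted p under 0.05 in edgeR. It was 3 of the 8 without NC library 1 and 1 of the 8 without NC library 3.

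PRDM10, an activator of the folliculin gene FLCN, had 2.04, 2.33 and 3.19 TPM in the PRDM16 libraries, against 2.47, 3.99 and 2.82 TPM in the NC libraries. The groups overlapped, with NC library 2 the highest and PRDM16 library 3 next. The log2 fold change of -0.16 ± 0.17 (SE, edgeR adjusted p = 0.603) was 0.03 without NC library 2, so its sign rested on that library.

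PRDM8 and PRDM1 were the lowest of the genes present in both groups. PRDM8, a repressor that works with BHLHE22 in mouse neurons, had 1.40, 1.53 and 1.56 TPM in the PRDM16 libraries, against 1.78, 1.61 and 1.35 TPM in the NC libraries. The groups overlapped fully, and the 95% interval of the log2 fold change was -0.34 to 0.46. PRDM1, also called BLIMP1, a repressor that drives B cells to become plasma cells, had 0.382, 0.469 and 0.681 TPM in the PRDM16 libraries, against 0.545, 0.535 and 0.483 TPM in the NC libraries. It rested on 25 to 86 counts per library, and its PRDM16 libraries lay on both sides of the NC libraries. Its 95% interval, -0.38 to 0.62, was the widest of the 8. A p that does not pass does not show that a gene stayed the same, and the intervals of these 8 genes together run over folds of 0.697 to 1.54.

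**Figure D2:**
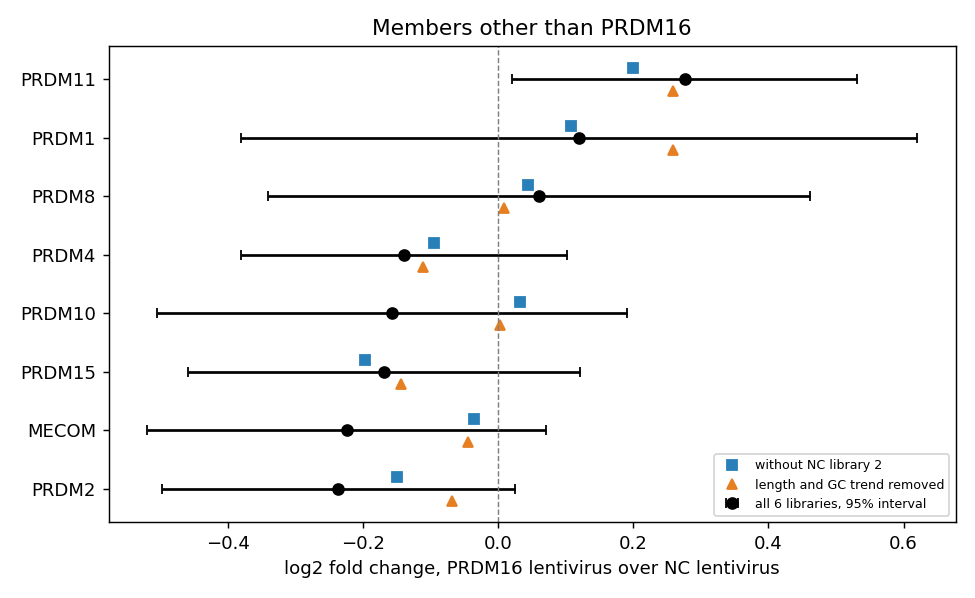
Log2 fold change of the 8 genes other than PRDM16, PRDM16 lentivirus over NC lentivirus, with 95% intervals from edgeR (black), the values without NC library 2 (squares) and with the length and GC trend removed (triangles). Only the interval of PRDM11 lies wholly on one side of 0, and under both alternatives the values lie nearer 0 for 6 of the 8 genes, with PRDM10 past 0 and PRDM1 and PRDM15 the exceptions.

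As a set, 5 of the 8 genes had a log2 fold change below 0 and 3 above 0, with a median of -0.15, against 53.1% below 0 and a median of -0.02 over all tested genes. Without NC library 2 the median of the 8 was -0.00199, with 4 below 0. With any other single library left out it was between -0.19 and -0.10, with 5 or 6 below 0.

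Base composition moved with these values, and beyond the adjusted fit below its part in them was not tested. Over the 13892 tested genes whose GC content was known, fold changes were higher at higher GC content (Spearman's rho = 0.639 across genes, which are not independent replicates). Over the 8 genes rho was 0.524 (n = 8, all from the same libraries). MECOM, PRDM10, PRDM1 and PRDM2, with 45.2% to 47.2% GC, fall in the second lowest of 5 equal bins by GC content, where the median log2 fold change was -0.14. PRDM15, PRDM8 and PRDM11, with 55.3% to 58.1% GC, fall in the second highest bin, where it was 0.12. PRDM15 lay below 0 in that bin and PRDM1 above 0 in its own. NC library 2 was the highest of the 6 libraries for MECOM, PRDM2, PRDM4 and PRDM10 and the lowest for PRDM11, and its median deviation from the mean of the 6 libraries went from 0.34 in the lowest bin to -0.25 in the highest. With the length and GC trend of each library removed, MECOM was at -0.04, PRDM2 at -0.07, PRDM10 at 0.00291, PRDM4 at -0.11, PRDM15 at -0.14, PRDM11 at 0.26, PRDM8 at 0.00799 and PRDM1 at 0.26, against 0.12 for PRDM1 with the trend in place. None of the 8 passed in edgeR.

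**Figure D3:**
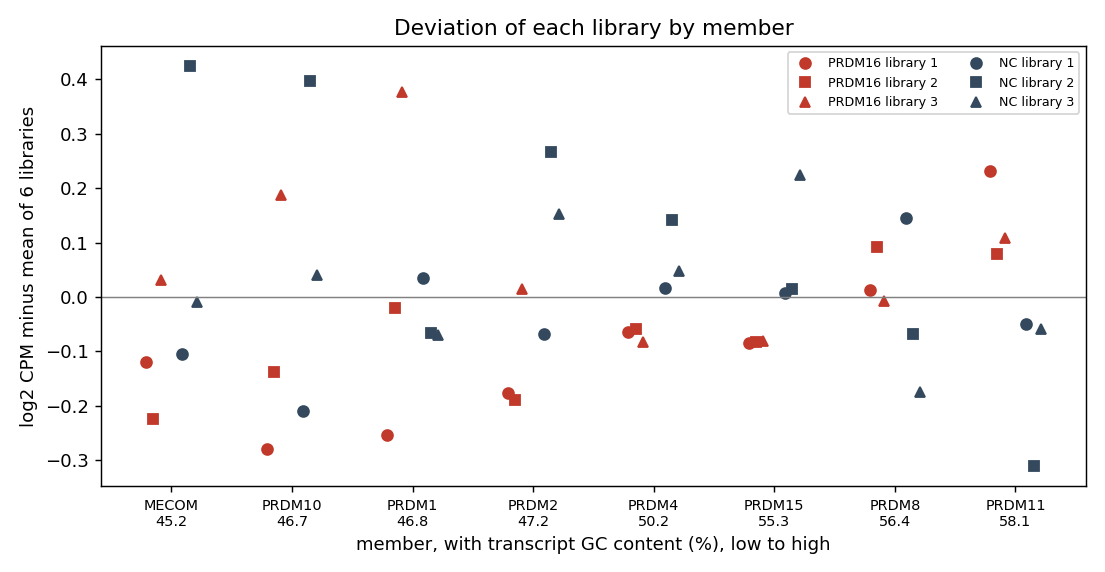
Deviation of each library from the mean of the 6 libraries in log2 CPM for the 8 genes, ordered by transcript GC content, PRDM16 libraries in red and NC libraries in dark blue. NC library 2 (dark blue square) is high for MECOM and PRDM10 at the left and low for PRDM11 at the right.

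Few exon bases of these genes are shared with others. Other genes share at most 4.17% of the exon bases of any of the 9, and all of those that share exon bases lie on the opposite strand. They were LINC00167 over PRDM10, LOC101929162 over PRDM4 and PRDM8-AS1 over PRDM8, with at most 2, 15 and 8 counts in any library. The strand setting of the counting is not given.

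Of 7 further PR domain genes described here, 1 was expressed well enough to be tested. ZNF408, also known as PRDM17, had 42.6, 42.0 and 45.3 TPM in the PRDM16 libraries, against 49.0, 36.9 and 38.4 TPM in the NC libraries. It overlapped between the groups and exceeded PRDM4 in level in all 6 libraries. The other 6, PRDM6, PRDM7, PRDM9, PRDM12, PRDM13 and PRDM14 had at most 4 counts in any library.

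The SET domain histone methyltransferases, the enzymes to which the PR domain is related, did not pass in any case. Of 26 listed, 25 were tested, and 0 passed in edgeR, DESeq2 or limma-voom. There were 6 of 25 with an unadjusted p under 0.05 in edgeR, against 16% of all tested genes, and all 6 were lower in the PRDM16 libraries. The list had a median log2 fold change of -0.11, which was -0.09 without NC library 2 and -0.02 with the length and GC trend removed. The 4 with the smallest p were ASH1L, KMT2C, SETD7 and SETD2, which write methyl marks on histone H3. ASH1L had 41.1 ± 3.04 CPM in the PRDM16 libraries and 52.4 ± 10.2 CPM in the NC libraries (SD, n = 3 each), a log2 fold change of -0.35 that was -0.13 with the trend removed. These 4 have 42.7% to 46.3% GC.

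Known partners of PRDM proteins, such as the corepressors CTBP1 and CTBP2, the methyltransferases EHMT1 and EHMT2 and the histone deacetylases, were tested in 15 of 17 cases, and 0 passed in edgeR, DESeq2 or limma-voom. CEBPB, the partner of PRDM16 in brown fat, was the 1 of 15 with an unadjusted p under 0.05 in edgeR, where 16% of all tested genes had one. It had 123 ± 16.7 CPM in the PRDM16 libraries and 96.7 ± 23.7 CPM in the NC libraries (SD, n = 3 each). Its log2 fold change of 0.34 was 0.22 without NC library 2 and 0.03 with the length and GC trend removed. HDAC3 (0.22), HDAC2 (-0.21) and MED1 (-0.21) followed by p, as log2 fold changes. With the trend removed HDAC3 was at 0.16, HDAC2 at 0.03 and MED1 at -0.05, and without NC library 2 they were at 0.15, -0.06 and -0.07. The median of the list was -0.04.

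Genes known as targets of PRDM1, MECOM or PRDM15 were tested in 9 of 14 cases, with 0 that passed in edgeR, DESeq2 or limma-voom, and 0 at an unadjusted p under 0.05 in edgeR, against 16% of all tested genes. The median log2 fold change of the list was 0.06, and it turned to -0.000547 without NC library 2 and to -0.03 with the length and GC trend removed. The smallest p belonged to CEBPA, a transcription factor of myeloid and fat cells, with 1.56 ± 0.222 CPM in the PRDM16 libraries and 1.09 ± 0.232 CPM in the NC libraries (SD, n = 3 each; log2 fold change 0.52 ± 0.26 SE, edgeR adjusted p = 0.319). ITGA6 (-0.25), SPRY1 (0.29) and ADGRG1 (0.16) came next, as log2 fold changes. SPRY1 is a feedback inhibitor of growth factor signalling that PRDM15 controls in mouse stem cells. With the trend removed CEBPA was at 0.23, ITGA6 at -0.05, SPRY1 at 0.38 and ADGRG1 at 0.06. Without NC library 2 they were at 0.40, -0.08, 0.30 and 0.08.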

How the data were processed

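RNA sequencing of 6 libraries of the HPC line was analysed, 3 with PRDM16 and 3 with NC lentivirus, grouped by their titles. Libraries were made from oligo(dT)-selected RNA with random hexamer priming, per the labels' protocols. Per the file headers, the authors deposited raw counts, TPM and FPKM for each gene, with exon coordinates and length. The submitters' processing notes name the build hg38. The deposited FPKM and TPM follow from the deposited counts and lengths, as checked on the files, and FPKM was not used further. The aligner, counting tool and strand setting were not given in the labels or headers. Broken lines of 7 genes were rejoined.

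The main test was edgeR's quasi-likelihood F test (edgeR 4.0.16, R 4.3.3, robust, TMM factors, minimum count 10). It was checked on counts simulated without a length and GC trend, so that check does not cover the trend. Intervals used the moderated degrees of freedom. DESeq2 1.42.0 and limma 3.58.1 were alternatives, with other scalings and filters, left-out libraries, a replicate block, and offsets for splines of length and GC content (GENCODE transcripts, 90.3% of tested genes matched). RefSeq promoters were found for 8 of the 9 genes by symbol; PRDM16 is the other. The PRDM genes and gene lists were chosen with earlier results of these data known. From each list, genes that passed and otherwise the 4 with the smallest p were named. Some listed genes are not reported here. All pairs of libraries differed by more than sampling noise. Totals of 20147135 to 41280350 counts make 3 counts equal to 0.0727 to 0.149 CPM. These floors cover counting error only.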

Additional observations from a re-analysis of the deposited data

How the results depend on the processing

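PRDM16 passed under all 16 alternatives in which it was tested, with adjusted p between 6.5e-09 and 0.0389, but it entered the test through the PRDM16 libraries alone. Its exact permutation p was 0.1 under all 4 alternatives, the smallest that 3 against 3 libraries can give, so this says nothing of stability. With a minimum count of 30 it was not tested and 0 of the 9 genes passed, by construction. The other 8 passed under none of the 17 alternatives, and 132 of their 136 values kept their direction. Those that turned were PRDM10 without NC library 2 (0.0314) and with the length and GC trend removed (0.00291), PRDM1 without PRDM16 library 3 (-0.098) and PRDM8 without NC library 3 (-0.00319), and the cause was not tested. Over all left-out libraries, the log2 fold change was between -0.31 and 0.03 for PRDM10, between -0.10 and 0.24 for PRDM1 and between -0.00319 and 0.15 for PRDM8. With the trend removed PRDM1 was at 0.26, its highest value. Over all genes, 10 passed, against 41 in DESeq2, 7 in limma-voom, 5 with library totals alone, 107 with no count filter, 17 with listings outside the chromosomes left out, 18 with listings of a symbol summed, 5 with the trend removed, and 7 to 173 with a library left out. The highest was without NC library 3, then 59 without PRDM16 library 2 and 20 without PRDM16 library 1. Deviations of same-numbered libraries from their group means had r of -0.13 to 0.09. With 3 libraries per group these values cannot decide whether the numbers pair the libraries, and the labels do not say. With the number as a replicate block, 10 genes passed over all and 1 of the 9, PRDM16 (adjusted p = 0.0142). Depth limits PRDM16, PRDM1 and PRDM8 most, with at most 24, 86 and 129 counts per library.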
